A study of Mus musculus with 6 samples.

Results

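The genes described are 8 transcription factors of epithelial differentiation: Elf3, Elf5 and Ehf of the ETS family, Klf5 of the Krüppel-like family, Grhl1 and Grhl3 of the Grainyhead-like family, and Tfap2a and Tfap2c of the AP-2 family. They were chosen by name, as the rows of the count table with these symbols, and all 8 were found among its 26586 genes. Their RNA was measured in cells sorted from isolates of the mouse endometrial epithelium. The 3 Axin2+ libraries come from GFP-positive cells and the 3 Axin2- libraries from GFP-negative cells, numbered by mouse, with 1 library of each fraction per mouse. The strain of both fractions is Axin2rtTA; tetOH2BJGFP, in which the Axin2 promoter drives a doxycycline-dependent activator of a histone-GFP fusion, so that fluorescence reports promoter activity. Surgery and treatment were also shared: ovaries were removed at 4 weeks of age, the mice rested for 2 weeks, and uteri were taken 4 days after doxycycline, at 6 weeks of age. The comparison asks how the fluorescent cells differ from the non-fluorescent ones. The labels also mention that cells of the mice were pooled, so the spread between libraries may be partly technical.

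Each of these families is defined by its DNA-binding domain. ETS proteins bind a core with GGAA, and Elf3, Elf5 and Ehf are among the members of that family whose expression is largely limited to epithelia. Krüppel-like factors bind GC-rich and CACCC-type sites through zinc fingers, and Klf5 is needed in the mouse uterine epithelium for embryo implantation. Grainyhead-like factors control junction and barrier genes from flies to mammals, with Grhl2 known as the regulator of E-cadherin in simple epithelia and Grhl3 for closing the epidermal barrier and wounds. AP-2 proteins act in skin, neural crest and trophoblast.

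Promoter windows of the RefSeq table (build GRCm38.p6, 250 bases before to 50 after a start site) were matched for 5 of the 8 genes: Elf3, Elf5, Grhl1, Grhl3 and Tfap2a. The windows of Elf3 and Grhl3 are shown because both genes were higher in Axin2+ cells and belong to different families, the first abundant and the second without a read in Axin2- cells. Capitals mark the CACCC-type motif CCACCC or its reverse complement, the only motif of those searched that either window holds. Elf3 lies on the minus strand, chr1:135258423-135258722, and Grhl3 on the minus strand, chr4:135573583-135573882.
Elf3: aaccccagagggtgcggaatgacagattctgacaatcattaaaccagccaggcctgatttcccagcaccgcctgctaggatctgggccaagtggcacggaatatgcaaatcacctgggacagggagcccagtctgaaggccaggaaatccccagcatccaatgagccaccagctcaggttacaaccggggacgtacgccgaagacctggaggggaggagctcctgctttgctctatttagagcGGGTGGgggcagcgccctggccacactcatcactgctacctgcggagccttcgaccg
Grhl3: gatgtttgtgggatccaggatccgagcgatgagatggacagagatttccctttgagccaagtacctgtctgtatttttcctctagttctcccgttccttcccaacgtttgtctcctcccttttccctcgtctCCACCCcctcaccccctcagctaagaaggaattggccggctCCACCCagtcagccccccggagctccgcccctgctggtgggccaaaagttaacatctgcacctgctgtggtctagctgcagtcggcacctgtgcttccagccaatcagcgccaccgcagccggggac

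The motif begins at -7 from the start site of Elf3, and at -118 and -77 from that of Grhl3. On both strands, CCACCC was found in 31.5% of the 32851 promoter windows of that length, the ETS-type motif CCGGAA in 14.9%, the AP-2-type motif GCCNNNGGC in 16.6% and the Grainyhead-type motif AACCNGTT in 2.09%. Of the 8 windows of these 5 genes CCACCC was in 4, those printed and 1 each of Elf5 and Grhl1, and it was in neither window of Tfap2a. GCCNNNGGC was in 1, upstream of Grhl1, and CCGGAA and AACCNGTT were in none. These matches describe letters in a window and no binding was measured.

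Of the 8 genes 5 were higher in the Axin2+ libraries, 1 was lower, and 2 had too few reads for the test. Elf3, Ehf and Klf5 were the abundant ones. Their pooled CPM (read counts scaled to library size adjusted by TMM factors) were 10.01, 16.5 and 7.81 times as high in Axin2+ cells. Elf5 rose at a trace level and Grhl1 rose least, whereas Tfap2c fell. Grhl3 was read only in Axin2+ cells, at a low level, and Tfap2a overlapped between fractions. Of the 6 genes tested 5 rose and 1 fell (edgeR, adjusted p under 0.05 over 16896 genes), where 14.5% of all tested genes rose and 12.8% fell. Elf5, counted among those that rose, passed the filter on low counts only through its Axin2+ reads. The number that rose was 3 without the Axin2+ library of mouse 2 or the Axin2- library of mouse 3, and none fell without the Axin2+ library of mouse 2. Over all tested genes 1491 rose without that library, against 2447 with it, and 1053 fell, against 2171; without the Axin2- library of mouse 1 or 3, 1272 or 1308 fell. With scaling by library size alone, which moved the median log2 fold change of all genes to 0.16 from -0.01, the share of calls that were higher was 67.4%, against 53% with TMM scaling.

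**Figure D1:**
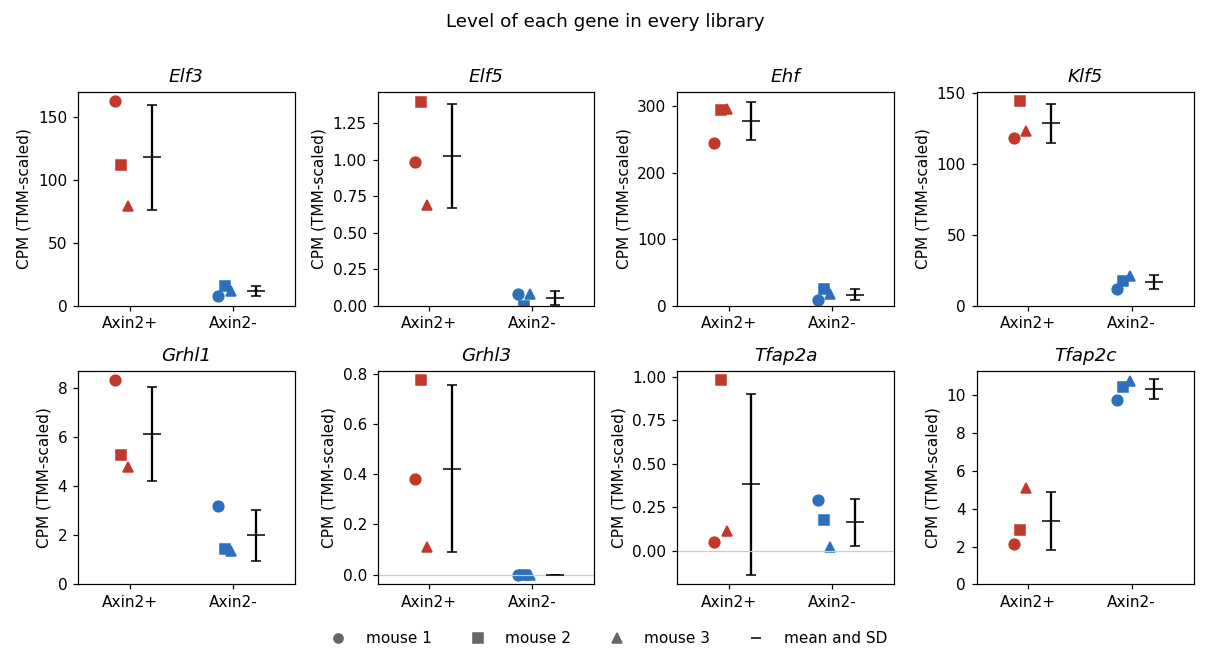
Normalised read counts (CPM, scaled with TMM factors, vertical axes) of each of the 8 genes in the 3 Axin2+ and the 3 Axin2- libraries; symbols give the mouse, and bars the mean and SD of 3 libraries. The Axin2+ libraries lie above the Axin2- libraries for Elf3, Elf5, Ehf, Klf5, Grhl1 and Grhl3 and below them for Tfap2c, and the fractions overlap for Tfap2a.

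Markers of the cell types that the sort could hold were read in the same libraries. The general epithelial markers were higher in Axin2+ cells, 12 of 12, with a median log2 fold change of 3.46, and their summed level ranged from 2471 to 3534 CPM in Axin2+ and from 225 to 316 CPM in Axin2- libraries. Smooth muscle markers were lower there, 6 of 6 (169 to 289 against 2095 to 5645 CPM summed), and stromal fibroblast markers were lower in 7 of 8 (2941 to 4027 against 9212 to 19740 CPM summed). Of the stromal markers 3 were lower without the Axin2+ library of mouse 2, and 4 without the Axin2- library of mouse 1 or of mouse 3. Macrophage and leukocyte markers were higher in 5 of 6 (504 to 2908 against 52.8 to 291 CPM summed), with Lyz2 at 1579, 1019 and 287 CPM in the Axin2+ libraries of mice 1, 2 and 3. That count was 0 to 3 without any 1 of 5 libraries (each but the Axin2+ library of mouse 3), and 2 with mouse as a block or with no filter. Endothelial markers were higher in 4 of 7 (182 to 393 against 182 to 221 CPM summed), and in 2 with mouse as a block, in 2 without either library of mouse 2 and in 1 without the Axin2- library of mouse 3. Mesothelial markers were higher in 3 of 5 and lower in 1, Wt1 (166 to 471 against 174 to 224 CPM summed). The 2 tested Schwann and neural crest markers did not pass in edgeR (median log2 fold change 0.09), and the list overlapped between fractions (3.98 to 6.51 against 2.06 to 7.72 CPM summed). Axin2 itself, whose promoter drives the reporter, stood at 164, 243 and 299 CPM in Axin2+ and at 369, 357 and 356 CPM in Axin2- libraries, so the libraries labelled Axin2+ held less Axin2 transcript than those labelled Axin2-, and every direction given is that of the libraries as labelled. Fewer cells of a type and less RNA per cell cannot be told apart in such bulk libraries, and the part that epithelial content has in the results was not tested beyond the values set against epithelial markers.

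Ehf, an ETS factor of glandular and other epithelia, had the highest counts of the 8 genes. Its gene (ENSMUSG00000012350, mm10 chromosome 2, 103263433 to 103303278, minus strand) was read at 245, 294 and 296 CPM in the Axin2+ libraries of mice 1, 2 and 3, against 8.24, 24.7 and 16.7 CPM in the Axin2- libraries. The lowest Axin2+ library lay far above the highest Axin2- library. Ehf averaged 279 ± 28.7 CPM in Axin2+ and 16.6 ± 8.24 CPM in Axin2- cells (SD, n = 3 each). The log2 fold change was 4.07 ± 0.40 (SE; edgeR adjusted p = 0.000755).

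Elf3 is an ETS factor known for differentiation of the mouse intestinal epithelium. Its gene (ENSMUSG00000003051, chromosome 1, 135253575 to 135258568, minus strand) was read at 163, 112 and 79.6 CPM in the Axin2+ libraries, against 7.87, 16.0 and 11.4 CPM in the Axin2- libraries. The Axin2+ library of mouse 1 was the highest, and the Axin2- library of that mouse the lowest. The means were 118 ± 41.9 and 11.7 ± 4.05 CPM, and the log2 fold change was 3.33 ± 0.36 (SE; edgeR adjusted p = 0.00106). Within mice the log2 ratio was 4.37, 2.81 and 2.80. Krt8, a keratin of simple epithelium, was ordered alike in the Axin2+ libraries, at 896, 496 and 395 CPM, and so was Lyz2. Of the other general epithelial markers, Krt7, Krt18, Krt19, Cldn4 and Cldn7 had that order too. Epcam, at 204.5, 254.1 and 223.2 CPM, and Cdh1, Cldn3, Spint1, Spint2 and Rab25 did not. What any of these share with Elf3 was not tested. The annotation places an antisense gene, Gm26642, over Elf3 exons, and since no strand setting is given, its reads cannot be told from those of Elf3.

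Elf5, known for the mammary alveolar lineage and the trophoblast in mice, lies next to Ehf. The genes are 108409 bases apart on chromosome 2 with no protein-coding gene between them (Elf5 is ENSMUSG00000027186, 103411688 to 103450989, plus strand). Per kilobase of exon their Axin2+ levels were far apart, at 0.174 RPKM for Elf5 and 49.96 RPKM for Ehf. Elf5 had 57, 74 and 37 reads in the Axin2+ libraries, against 4, 0 and 4 reads in the Axin2- libraries. In CPM Elf5 stood at 0.983, 1.40 and 0.689 in Axin2+ cells, against 0.0778, 0 and 0.0824 in Axin2- cells, where a count of 0 in mouse 2 allows up to 0.0524 CPM. Every Axin2+ library was above every Axin2- library. The log2 fold change of 4.23 ± 1.02 (SE) passed (edgeR adjusted p = 0.0214). It did not pass with mouse as a block (adjusted p = 0.0611), without the Axin2+ library of mouse 2 (0.0840) or without the Axin2- library of mouse 1 (0.0593) or mouse 3 (0.0571). Without the Axin2- library of mouse 2, the one with no read, its fold change was 3.64 on the log2 scale.

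Klf5, a zinc finger factor of proliferating epithelia, had the smallest standard error of the 6 tested genes. Its gene (ENSMUSG00000005148, chromosome 14, 99298691 to 99315036, plus strand) was read at 118, 144 and 123 CPM in the Axin2+ libraries, against 11.3, 17.3 and 20.7 CPM in the Axin2- libraries. The fractions were well apart, with means of 128 ± 13.8 and 16.4 ± 4.75 CPM. The log2 fold change was 2.96 ± 0.23 (SE; edgeR adjusted p = 0.000390), with within-mouse log2 ratios of 3.38, 3.05 and 2.57.

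Grhl1, known in mice as a regulator of desmosomal cadherins in skin and hair, had the smallest fold change of the 5 genes that rose. Its gene (ENSMUSG00000020656, chromosome 12, 24572283 to 24617391, plus strand) was read at 8.33, 5.25 and 4.78 CPM in the Axin2+ libraries, against 3.21, 1.43 and 1.34 CPM in the Axin2- libraries. In each fraction the library of mouse 1 was the highest, and the lowest Axin2+ library exceeded the highest Axin2- library by less than the spread within the Axin2+ fraction. The log2 fold change of 1.62 ± 0.45 (SE) passed (edgeR adjusted p = 0.0350), and with mouse as a block it was 1.69 (adjusted p = 0.0197). It did not pass without the Axin2+ library of mouse 1 (0.0930) or 2 (0.0780), or without the Axin2- library of mouse 2 (0.0879) or 3 (0.1004).

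Grhl3, the Grainyhead-like factor of the epidermal barrier, was read in Axin2+ cells only. Its gene (ENSMUSG00000037188, chromosome 4, 135541888 to 135573630, minus strand) had 22, 41 and 6 reads in the Axin2+ libraries, against 0, 0 and 0 reads in the Axin2- libraries. That is 0.380, 0.774 and 0.112 CPM, against a limit of 0.0583, 0.0524 and 0.0618 CPM that a count of 0 allows in the libraries of mice 1, 2 and 3. With a floor of 3 counts per library the mean was at least 7.33-fold higher in Axin2+ cells, and at least 4.27-fold higher without the Axin2+ library of mouse 2. The filter on low counts left Grhl3 out of the test. With no filter, where 10.8% of 21237 genes were higher in Axin2+ cells, its edgeR adjusted p was 0.0292. Grhl3 also passed the filter, only through its Axin2+ reads, in 4 of the fits that left out 1 library. The edgeR adjusted p was 0.0299 without the Axin2+ library of mouse 3. It was 0.0622, 0.0573 or 0.0625 without the Axin2- library of mouse 1, 2 or 3.

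Among the stratified epithelium markers, Krt5 stood high in the Axin2+ library of mouse 2, where Grhl3, Elf5 and Tfap2a were also highest. That library was also the highest for Klf5, Grhl2, Tfcp2l1, Epcam and Cdh1, at 144, 93.3, 476, 254 and 425 CPM. It was not for Elf3, Grhl1 and Krt8, which were highest in mouse 1, or for Ehf and Tfap2c, highest in mouse 3. Krt5, a keratin of basal cells, was at 0.897, 11.5 and 0.205 CPM in the Axin2+ libraries of mice 1, 2 and 3, against 0.525, 0.0699 and 0 CPM in the Axin2- libraries. The whole list summed to 23.6, 33.1 and 13.7 CPM in Axin2+ and to 10.3, 9.04 and 10.6 CPM in Axin2- libraries. Without Krt5 it summed to 22.7, 21.6 and 13.5 CPM in Axin2+ and to 9.76, 8.96 and 10.6 CPM in Axin2- libraries. The peak of the sum in mouse 2 was thus that of Krt5. Krt4, at 7.26, 0.510 and 0.428 CPM, and Krt13, at 0.380, 0.604 and 0.651 CPM, were ordered differently in the Axin2+ libraries. Other markers were also highest in mouse 2 among the Axin2+ libraries. Krt14 was at 8.35, 8.52 and 4.89 CPM, Krt10 at 3.71, 5.44 and 3.67 CPM and Trp63 at 2.59, 5.70 and 3.74 CPM. Krt1 and Dsg3, which reached at most 0.227 and 0.566 CPM, had that order too for their highest library. None of the 6 tested genes of the list passed in edgeR, and 1 did with mouse as a block. Krt6a had no read and Ivl, of cornified cells, reached at most 0.155 CPM. The part of such cells in the Grhl3, Elf5 and Tfap2a reads was not tested.

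Tfap2c was the only AP-2 gene with enough reads for the test. Tfap2c, known from trophoblast and from luminal breast cells in humans, was read at 2.12, 2.87 and 5.08 CPM in the Axin2+ libraries, against 9.76, 10.5 and 10.8 CPM in the Axin2- libraries (ENSMUSG00000028640, chromosome 2, 172549593 to 172558622, plus strand). The Axin2- libraries lay close together, all above the Axin2+ libraries, of which mouse 3 was the highest. The means were 3.36 ± 1.54 and 10.3 ± 0.53 CPM, and Tfap2c fell by 1.62 ± 0.35 (SE) on the log2 scale (edgeR adjusted p = 0.0149). Without the Axin2+ library of mouse 2 it did not pass (adjusted p = 0.0621). Tfap2a, of skin and neural crest (ENSMUSG00000021359, chromosome 13, 40715302 to 40738376, minus strand), had 3, 52 and 6 reads in the Axin2+ libraries, against 15, 10 and 1 in the Axin2- libraries, so that the fractions overlapped and 1 library held most of the reads. Annotated antisense genes overlap Tfap2a exons as well. With no filter its edgeR adjusted p was 0.552. Of the other AP-2 genes, Tfap2b and Tfap2d had no read in any library and Tfap2e reached at most 0.292 CPM.

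Per kilobase of exon, Elf3, Ehf and Klf5 led in Axin2+ cells, at 53.2 ± 18.9, 49.96 ± 5.14 and 24.7 ± 2.66 RPKM (SD, n = 3 each, using summed exon length of the GENCODE M21 annotation). Grhl1 at 1.10 ± 0.35 and Tfap2c at 0.913 ± 0.418 RPKM followed far below. Elf5, Grhl3 and Tfap2a came last, at 0.174 ± 0.0606, 0.151 ± 0.119 and 0.0779 ± 0.106 RPKM. Elf3 and Ehf overlapped in their ranges, as did Grhl1 and Tfap2c, Elf5 and Grhl3, and Grhl3 and Tfap2a, while the steps between these groups and that from Ehf to Klf5 did not. In Axin2- cells the order began with Elf3, Klf5, Ehf and Tfap2c at 5.30 ± 1.83, 3.16 ± 0.91, 2.97 ± 1.48 and 2.81 ± 0.14 RPKM. Each of these overlapped the next, so that Tfap2c was not set apart from Ehf there, whereas it lay far below Ehf in Axin2+ cells. Grhl1 stood at 0.360 ± 0.190, Tfap2a at 0.0331 ± 0.0277 and Elf5 at 0.00908 ± 0.00788 RPKM in Axin2- cells, and Grhl3 was at 0.

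In Axin2+ cells all 3 libraries lay above all Axin2- libraries for 5 of the 6 tested genes, and below them for Tfap2c. Of all tested genes 23.9% lay above and 23.2% below in that way. Elf5 was among the tested genes only through its Axin2+ reads.

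Set against epithelial markers of the same library, 2 of the 5 tested genes with reads in every library overlapped between fractions and 3 did not. The measure is the log2 CPM of a gene minus the mean log2 CPM of the 12 general epithelial markers. That mean was itself 3.52 higher in Axin2+ libraries on the log2 scale. A gene that fell, or rose by less than that mean, is therefore lower on this measure, whichever cells its reads came from. Which cells these were was not tested. Elf3 stood at -0.45 ± 0.29 in Axin2+ and -0.25 ± 0.21 in Axin2- libraries (SD, n = 3 each), which overlapped (difference -0.20, exact two-sided permutation p = 0.4). Ehf stood at 0.84 ± 0.37 and 0.16 ± 0.48, also overlapping (difference 0.68, exact permutation p = 0.2). Klf5 stood at -0.27 ± 0.29 and 0.25 ± 0.25, with every Axin2+ library lower (difference -0.52). Grhl1 stood at -4.70 ± 0.24 and -2.87 ± 1.0, and every Axin2+ library was lower (difference -1.83). Tfap2c stood at -5.62 ± 0.87 and -0.38 ± 0.26, again with every Axin2+ library lower (difference -5.24). For Klf5, Grhl1 and Tfap2c the exact permutation p was 0.1, the smallest that 3 libraries against 3 allow, so none of these differences could pass. The choice of marker moved them: against Epcam alone the difference was -0.96 for Elf3 and -0.075 for Ehf, and against 4 keratins 0.21 for Elf3 and -0.11 for Klf5.

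**Figure D2:**
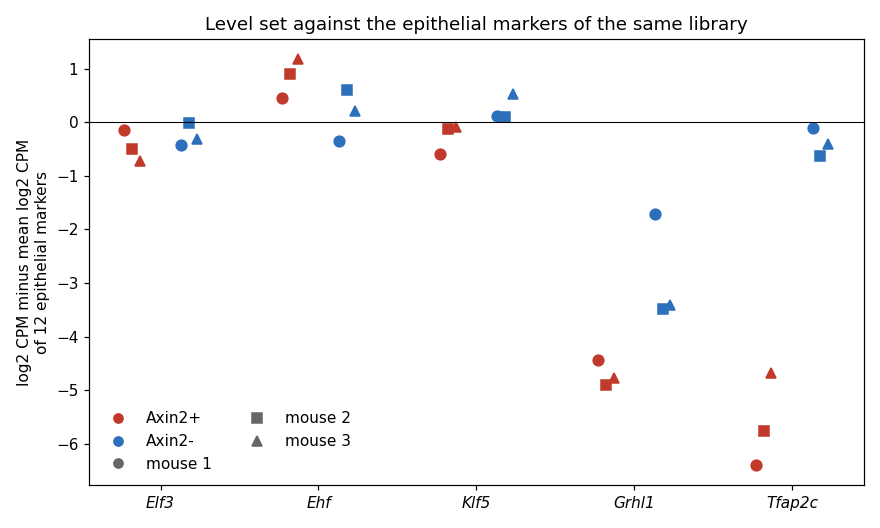
Log2 CPM of each gene minus the mean log2 CPM of 12 epithelial markers (vertical axis) in the 3 Axin2+ (red) and 3 Axin2- (blue) libraries, with symbols for the mouse. Elf3 and Ehf overlap between fractions, while all Axin2+ points of Klf5, Grhl1 and Tfap2c lie below the Axin2- points, furthest for Tfap2c (-5.62 against -0.38 on average).

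The 4 families, members included, show how far the members stand for them. Of 25 tested ETS genes, Elf3, Elf5 and Ehf included, 9 rose and 2 fell, where 14.5% of all tested genes rose and 12.8% fell. The median log2 fold change of these ETS genes was 0.76, against -0.01 for all tested genes. Elf5, Ehf and Elf3 had the highest fold changes among the tested ETS genes, with Elf5 among these only through its Axin2+ reads. On the log2 scale they stood at 4.23 ± 1.02, 4.07 ± 0.40 and 3.33 ± 0.36 (SE), followed by Spic at 3.13 ± 1.61. Their order was not tested. Spdef, another ETS gene, overlapped between fractions and did not pass (log2 fold change 0.86, edgeR adjusted p = 0.391). Etv5, an ETS factor induced by FGF signalling, rose to 90.9 ± 14.4 CPM in Axin2+ cells, against 19.9 ± 2.205 CPM in Axin2- cells (log2 fold change 2.19 ± 0.16 SE, edgeR adjusted p = 0.000313). Those that fell were Ets1, a factor of lymphoid, endothelial and stromal cells, at 43.1 ± 4.68 against 90.3 ± 11.9 CPM and Erf, a repressor, at 43.6 ± 2.57 against 76.01 ± 7.39 CPM. Spi1, which encodes the macrophage factor PU.1, and the endothelial factor Erg rose too, with log2 fold changes of 2.41 and 1.83. Macrophage markers passed as higher in 5 of 6 and endothelial markers in 4 of 7, with the losses given above, and the summed endothelial level overlapped between fractions. The endothelial cadherin gene Cdh5 had the opposite direction, at 78.9 ± 20.8 CPM in Axin2+ cells and 140 ± 36.5 CPM in Axin2- cells (log2 fold change -0.82, edgeR adjusted p = 0.0559). Without the Axin2+ library of mouse 2, 5 ETS genes rose.

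Klf5 was the only Krüppel-like gene of 15 tested that rose, and 4 fell, with a median of -0.53; over all tested genes 14.5% rose and 12.8% fell, so a single rise among 15 is near the background. Klf9, a factor known in mice as a partner of the progesterone receptor in the uterus, was at 86.2, 86.5 and 108 CPM in the Axin2+ libraries, against 265, 351 and 332 CPM in the Axin2- libraries (log2 fold change -1.75 ± 0.16 SE, edgeR adjusted p = 0.000602). Klf7 fell to 16.2 ± 2.10 CPM in Axin2+ cells, against 40.3 ± 3.77 CPM in Axin2- cells, and Klf11 to 49.4 ± 2.13, against 88.3 ± 26.8 CPM. Klf4, named after its values were seen, fell by 1.68 ± 0.48 (SE) on the log2 scale (adjusted p = 0.0396). In the Axin2+ library of mouse 1 Klf4 was at 380 CPM, against 142 and 112 CPM in those of mice 2 and 3, and Klf6 was at 663 against 116 and 84.4 CPM. The number that fell was 2 without the Axin2+ library of mouse 2 or 3, or without the Axin2- library of mouse 3.

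In the Grainyhead family Grhl2 and Tfcp2l1 rose with larger fold changes than Grhl1, a difference that was not tested. Grhl2 was read at 83.4, 93.3 and 79.6 CPM in the Axin2+ libraries, against 3.54, 7.55 and 4.98 CPM in the Axin2- libraries, a log2 fold change of 3.99 ± 0.29 (SE; edgeR adjusted p = 0.000302). Tfcp2l1, a factor of kidney and salivary gland ducts in mice, was read at 304, 476 and 382 CPM, against 23.97, 44.8 and 38.9 CPM (3.43 ± 0.29 SE, adjusted p = 0.000446). Every Axin2+ library of both genes was well above the Axin2- libraries. The relatives Tfcp2 and Ubp1, which are expressed in most tissues, did not pass (log2 fold changes -0.22 and -0.0078, edgeR adjusted p = 0.452 and 0.967). In this family, Grhl1 included, 3 of 5 tested genes rose, where 14.5% of all tested genes rose. Antisense genes and a pseudogene are annotated over Grhl2, 1 of them over an exon.

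**Figure D3:**
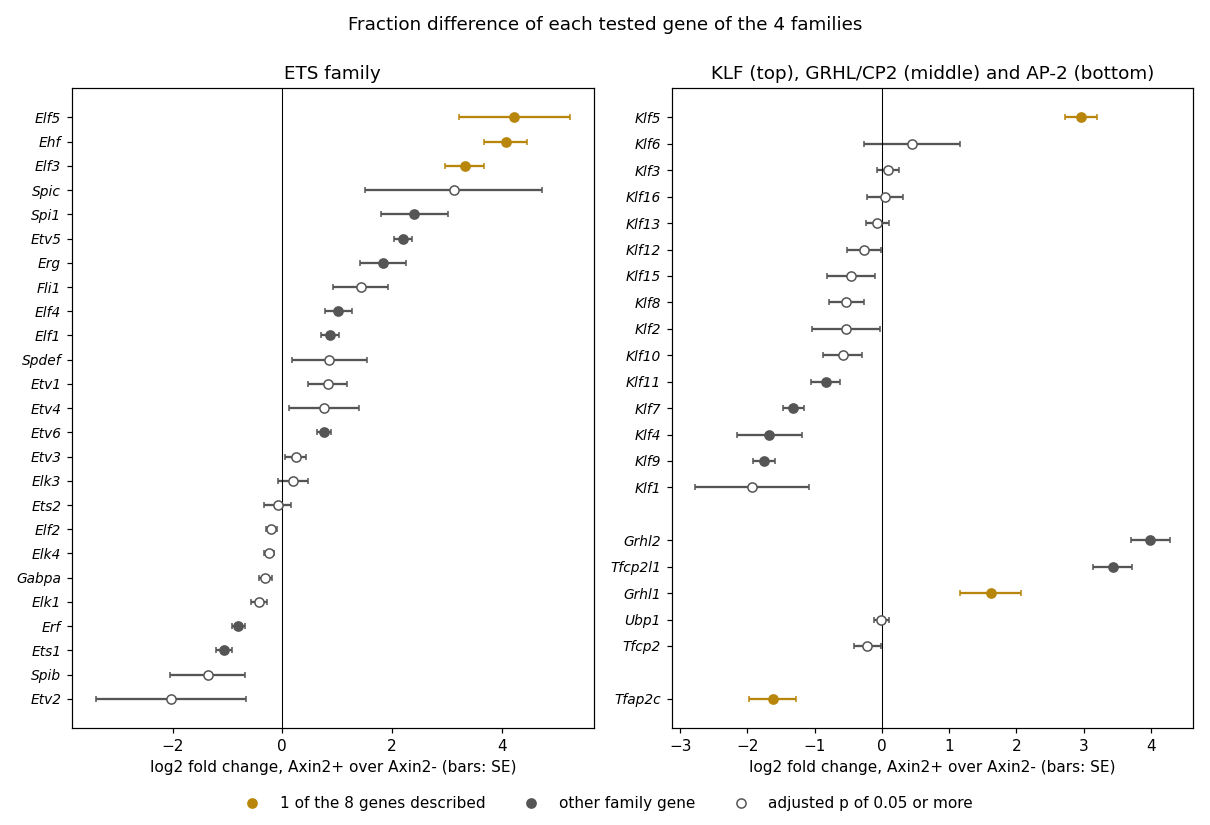
Log2 fold change of Axin2+ over Axin2- (horizontal axes, bars SE) for each tested gene of the ETS family (left) and of the KLF, GRHL/CP2 and AP-2 families (right); filled points passed at an adjusted p under 0.05. Elf5, Ehf and Elf3 top the ETS genes at 4.23, 4.07 and 3.33, an order that was not tested, and Elf5 was included only through its Axin2+ reads. Klf5 alone of the KLF genes is filled on the right of 0, and Grhl1 lies below Grhl2 and Tfcp2l1.

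Of 17 genes described elsewhere as targets of these factors 14 were tested, and 11 of these rose, with a median log2 fold change of 2.80. Of all tested genes 14.5% rose, and their median was -0.01. The lists overlap: Cdh1, Cldn4 and Rab25 are also general epithelial markers, and Esrp1 and Ovol2 are also among the other regulators described below. The counts of these lists are therefore not independent, and whether the targets follow the factors was not tested. Ccnd1, which encodes cyclin D1 and is described as a Klf5 target, had 157, 181 and 149 CPM in the Axin2+ libraries, against 11.8, 15.7 and 17.0 CPM in the Axin2- libraries. Cdh1, the E-cadherin gene bound by Grhl2 in mice, had 358, 425 and 301 CPM, against 16.6, 34.3 and 25.8 CPM, and is also 1 of the general epithelial markers. Esrp1, an epithelial splicing factor, rose by 3.79 ± 0.31 (SE) on the log2 scale. Erbb2, described as an AP-2 target in human breast cells, had 134 ± 21.4 CPM in Axin2+ cells, against 52.9 ± 1.37 CPM in Axin2- cells, while Tfap2c fell. Other genes are annotated over exons of Ccnd1, Erbb2 and Esrp1, so their counts may be shared. Tgm1, Tgfbr2 and Cdkn1a did not pass (edgeR adjusted p = 0.407, 0.312 and 0.0509), and Cdkn1a was lower with an adjusted p under 0.05 in 6 of 15 other settings. The milk genes Csn2 and Wap, targets of Elf5 in the mouse mammary gland, had 4 reads and none in the 6 libraries. Dsg1a, a desmosomal cadherin gene listed as a Grainyhead-like target, had no read either. Csn2, Wap and Dsg1a were not tested.

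Other regulators of epithelial differentiation rose in 7 of 11 cases and fell in 2, where 14.5% of all tested genes rose and 12.8% fell. Zfp750, counted among those that rose, passed the filter on low counts only through its Axin2+ reads. It had 127, 40 and 135 reads in the Axin2+ libraries, against 1, 19 and 5 in the Axin2- libraries. Esrp2, a splicing factor related to Esrp1 and overlapped by other genes in its exons, had 26.8, 24.2 and 22.8 CPM in the Axin2+ libraries, against 1.77, 1.76 and 2.04 CPM in the Axin2- libraries (log2 fold change 3.73 ± 0.19 SE, edgeR adjusted p = 0.000192). Every Axin2+ library was far above the Axin2- libraries. Those that fell were Prdm1, a transcriptional repressor, and Gata3, a zinc finger factor of trophoblast, luminal breast and T cells, with log2 fold changes of -1.39 ± 0.28 and -3.02 ± 0.67 (SE; edgeR adjusted p = 0.0120 and 0.0163). That count was 1 without the Axin2+ library of mouse 2 or the Axin2- library of mouse 3. Trp63, which marks basal cells of stratified epithelium, was at 2.59, 5.70 and 3.74 CPM in Axin2+ and at 3.60, 4.998 and 2.80 CPM in Axin2- libraries and did not pass (adjusted p = 0.905).

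Outside these lists, the genes whose profile over the 6 libraries was most like the mean standardized profile of the 6 tested genes were Camsap3, Smtnl2, Gpam, Ptprf and Ccdc125, with Pearson r between 0.9979 and 0.9996 on log2 CPM. The 6 points fall into 2 fractions, so r mainly restates the difference between them. Camsap3, which binds minus ends of microtubules in epithelial cells, had 42.6, 41.4 and 44.2 CPM in the Axin2+ libraries, against 5.74, 4.96 and 6.16 CPM in the Axin2- libraries.

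**Figure D4:**
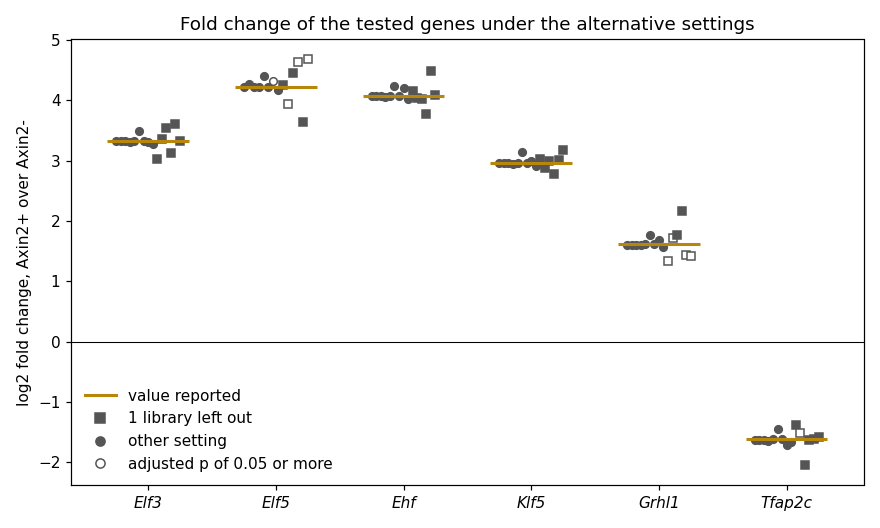
Log2 fold change of Axin2+ over Axin2- (vertical axis) of the 6 tested genes as reported (line) and under the alternative settings (points; squares leave out 1 library, open symbols have an adjusted p of 0.05 or more). Elf3, Ehf and Klf5 have no open symbol over 15 settings, Elf5 and Grhl1 have 4 each and Tfap2c has 1, and no fold change crosses 0.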

How the data were processed

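RNA of 6 libraries was measured by total RNA sequencing after ribosomal depletion. The deposited counts per gene are whole reads, which per the submitters' processing notes involved bcl2fastq 2.20.0.422, STAR 2.5.3a, featureCounts 1.5.3, StringTie 1.3.3, edgeR 3.22.5 and build mm10; for the annotation version and strand setting nothing is stated in the labels. Totals were 49714402 to 59597315 reads per library. The deposited table of the authors' comparison holds log2 fold changes, log2 CPM, an F statistic (a score) and p-values; in the authors' deposited table the log2 fold change of the 6 tested genes differed from those reported by at most 0.008.

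Counts were filtered (filterByExpr, 16896 of 26586 genes) and scaled with TMM. They were tested with edgeR 4.0.16 (robust quasi-likelihood test, Benjamini-Hochberg over all tested genes, threshold 0.05) in R 4.3.3. The procedure was also run on simulated counts in which far fewer genes changed than here. That run does not test the procedure on fractions that differ as widely as these. DESeq2 1.42.0, other filters and scalings, a mouse block and leaving out each library were alternatives. The labels number libraries by mouse, so the numbers pair them. Deviations of same-mouse libraries correlated at 0.269, 0.0129 and -0.0667 over 16896 genes. Those of libraries of different mice correlated at -0.236 to 0.25, a range that overlaps the same-mouse values. P-values measure the spread between these libraries. Intervals and floors (3 counts) cover counting error only, and RPKM used exon lengths of GENCODE M21 (GRCm38). The members and lists were chosen with earlier results of these data known. The genes named with values are the 8 members, the 4 tested genes of each list with the smallest p (the 2 with the highest mean CPM where none passed), and the 5 genes outside the lists, with a mean of at least 5 CPM, most like the tested members. Any other gene given a value was chosen after its values were seen. Some genes that this rule names are not reported here.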

Additional observations from a re-analysis of the deposited data

How the results depend on the processing

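Elf3, Ehf and Klf5 passed with the same direction under all 15 alternatives, with log2 fold changes of 3.03 to 3.61, 3.78 to 4.48 and 2.78 to 3.18. With mouse as a block Elf5 had a log2 fold change of 4.32 (edgeR adjusted p = 0.0611); the block changed no other call among the 6 tested genes. Leaving out 1 library gave 3.64 to 4.68 for Elf5, 1.33 to 2.17 for Grhl1 and -2.05 to -1.38 for Tfap2c, with the losses named beside each gene. It left 3 to 6 of the 8 genes higher and 0 to 1 lower, and the 6 include Grhl3, which passed the filter only through its Axin2+ reads. Of all genes 1491 to 2304 were then higher and 1053 to 1911 lower. These fits hold fewer libraries, and the cause of the lower counts was not tested. Against Epcam alone, the differences relative to epithelium were -0.96 (Elf3), -0.075 (Ehf), -1.28 (Klf5), -2.59 (Grhl1) and -6.00 (Tfap2c), and against 4 keratins 0.21 (Elf3) and -0.11 (Klf5). Of 89 alternative values for log2 fold changes of the tested genes 80 kept direction and call. The filter of at least 1 CPM in 3 libraries left Elf5 out, so that it has values for 14 settings. Depth limits Elf5, Grhl3 and Tfap2a, which had 8, 0 and 26 reads over the Axin2- libraries.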
